A study of Sus scrofa with 36 samples.

Results

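The comparison of neonatal pig hearts at P3 and P7, that is at 3 and 7 days after birth, covers 5296 of the 9815 genes with counts in the gene table. A gene was included when at least 3 of the 6 P3 and P7 libraries held at least 10 counts of it, and the other 4519 genes were below that level and are not described. Hearts came from Yorkshire pigs, a domestic breed, and each age group of the study held males and females. No animal was treated or carried an engineered allele, so age is the factor that differs by design. The balance of the sexes among the pigs used here was not examined. At each age 3 libraries were made, P3-4, P3-5 and P3-6 against P7-4, P7-5 and P7-6, 1 from each of 3 pigs. Total RNA was taken from heart tissue, in which myocytes and nonmyocytes are mixed, ribosomal RNA was removed, and the strand of the RNA was kept in the library kit. The study followed pig hearts from P1 to P28 to relate circular RNAs, microRNAs and genes to the postnatal cell cycle of the heart, and the libraries at P1 and P28 were used here to estimate the spread and as reference levels.

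Around birth, mammalian cardiomyocytes lose most of their ability to divide: they go through rounds of DNA replication and nuclear division without completing cytokinesis, which leaves mature cells with several nuclei or with polyploid nuclei. Fibroblasts, endothelial cells and other nonmyocytes of the same tissue keep dividing while the heart grows. Genes of S phase encode the proteins that license and copy DNA, whereas genes of G2 and mitosis encode the kinases, condensins, kinetochore proteins and motors that condense, attach and separate chromosomes, and the transcripts of many of them are most abundant in cells that cycle. In bulk tissue, fewer cells of a type and less RNA per cell cannot be told apart, and the same holds for more cells in cycle and more transcript per cycling cell.

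The libraries held between 8887176 and 14883849 counts each, and the shallowest of the 12 was P3-5. The positions below are those of the table, whose build is not stated: the study and its labels name Sscrofa10.2, but the positions match RefSeq Sscrofa11.1. The table lists genes of chromosomes 1, 2, 6 and 13 only and ends within chromosome 2, so a gene list below is represented by its members on these chromosomes. Genes of the signal recognition particle RNA, 9 in number, took 7.09% to 19.7% of the counts of a library, with P7-5 the lowest and P7-6 the highest. Log2 levels correlated among the 3 P7 libraries with r from 0.987 to 0.989 and among the P3 libraries with r from 0.964 to 0.979, where both correlations of P3-5 were the lowest at 0.964 and 0.968. The P3 libraries differed in ways that touch the results: P3-6 had the highest level of every G2/M gene tested among the P3 libraries, and P3-5 had the highest level of most genes that fell. Levels are given as CPM, the counts of a gene per 1000000 counts of the library after edgeR's TMM normalization, and are compared between libraries for 1 gene at a time.

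At P7, 85 genes rose and 32 fell against P3, which is 2.21% of the 5296 genes tested (edgeR's quasi-likelihood test, Benjamini-Hochberg adjusted p under 0.05). The genes that rose were 1.6% of those tested and the genes that fell 0.604%, and the median log2 change of all genes was -0.03. With DESeq2 the split was more even, at 205 higher and 159 lower genes. The log2 changes of the genes that rose ran from 0.45 to 4.61 and those of the genes that fell from -1.87 to -0.54. Of these genes, 54 and 18, respectively, exceeded 1 in size. The value of 4.61 is that of IL5RA, whose P3 counts of 0, 0 and 1 do not allow an exact size, and the next largest was 3.69 for LEPR. At the thresholds in the study's methods, an unadjusted p of at most 0.05 with an absolute log2 fold change over 0.5, 342 genes (6.46%) were upregulated and 346 (6.53%) were downregulated. The latter count was 169 without P3-5 and 592 without P3-4, whereas the former stayed between 291 and 379 when 1 library was left out. In simulated counts without any change, these thresholds called 154 genes and the adjusted p called 0.

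All 117 genes kept their direction when each of the 6 libraries was left out in turn. In each gene the 3 P7 libraries lay all above or all below the 3 P3 libraries, so this was largely fixed in advance. The number of calls moved in both directions. With the 6 libraries of these ages alone, 15 genes were called. There were 268 calls without P3-4, 42 without P3-5 and 226 without P3-6, against 26 without P7-4, 15 without P7-5 and 21 without P7-6. The 268 calls without P3-4 included 177 genes that were lower at P7, whereas 9 lower genes were called without P3-5. Of the 117 genes, 1 was called in none of the 6 fits that left out 1 library, 33 in 1 of them and 46 in 2. In all 6 fits, 11 genes were called, 7 of them with a symbol: APP, CDKN3, RCC1, LEPR, MYOZ3, WEE1 and RNF223. Of these, LEPR and MYOZ3 passed the count filter only through the P7 libraries, and RCC1, WEE1 and RNF223 were not called with the 6 libraries of these ages alone (adjusted p = 0.0515, 0.0515 and 0.0772).

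**Figure D1:**
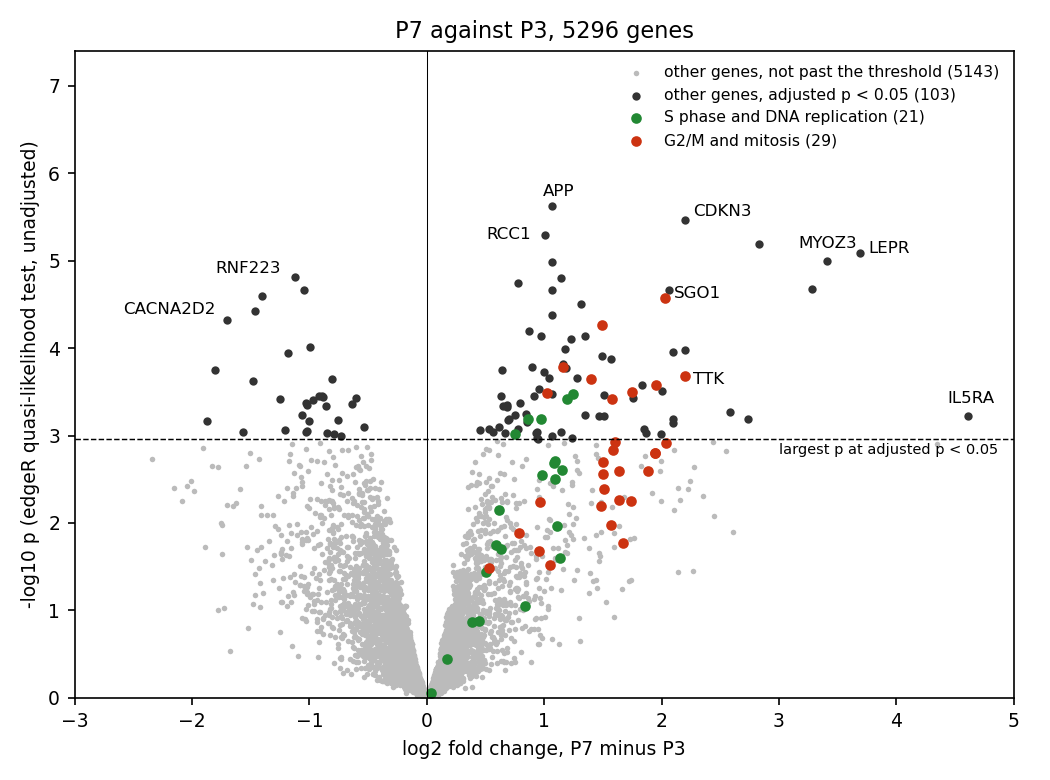
Each point is 1 of the 5296 genes, with the log2 fold change from P3 to P7 on the x axis and -log10 of the unadjusted p on the y axis. The 29 G2/M genes (red) and the 21 S phase genes (green) all lie right of 0, and the dashed line marks the largest p at which a gene was called.

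Among the genes that rose were CDKN3, a phosphatase that acts on cyclin-dependent kinases, and WEE1, the kinase that restrains CDK1 before mitosis. CDKN3 (chr1:183792673-183809174) was at 13.1, 8.55 and 18.6 CPM in P3-4, P3-5 and P3-6 and at 53.2, 69.1 and 64.2 CPM in P7-4, P7-5 and P7-6. The lowest P7 library was thus well above the highest P3 library, and the log2 change was 2.20 ± 0.28 (SE, adjusted p = 0.00784). WEE1 (chr2:49880434-49894478) was at 37.1, 34.2 and 47.8 CPM at P3 and at 84.6, 98.0 and 80.1 CPM at P7, a log2 change of 1.14 ± 0.17 (SE, adjusted p = 0.00829). RCC1, the chromatin-bound exchange factor of the Ran GTPase that guides spindle assembly, was at 26.3, 28.9 and 27.1 CPM at P3 and at 49.6, 60.7 and 55.0 CPM at P7. Its P3 libraries lay close together, and P3-6 was not the highest of them. CKAP5, a microtubule polymerase of the spindle, and HAUS8, a subunit of the augmin complex that branches spindle microtubules, rose by log2 changes of 0.77 and 0.87. A protein-coding gene without a symbol that was also called lies within the span of CKAP5, with far fewer counts. Of the remaining genes with the smallest p, MYEF2, a repressor of the myelin basic protein gene, PIK3R3, a regulatory subunit of phosphoinositide 3-kinase, and LRRC49, a component of a tubulin polyglutamylase complex, rose by log2 changes of 1.31, 1.06 and 1.35.

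The G2/M and mitosis list had 29 members in the table, and all 29 were tested. Of these, 9 rose, against 1.6% of all genes tested, and none fell. All 29 had a positive log2 change, with a median of 1.58 against -0.03 for all genes, and all 29 passed the thresholds of the study's methods in the upward direction, as did 6.46% of all genes tested. The 9 that rose were SGO1, which protects centromeric cohesion, the condensin subunit SMC4, the spindle protein NUSAP1, the checkpoint kinases TTK and BUB1B, the cytokinesis regulator ECT2, the kinetochore proteins CENPN and ZWILCH, and the kinase MELK. SGO1 was at 5.78, 6.26 and 12.3 CPM at P3 and at 28.1, 39.5 and 33.0 CPM at P7, and its log2 change was 2.03 ± 0.32 (SE, adjusted p = 0.00896). TTK was at 18.7, 11.8 and 47.6 CPM at P3 and at 114, 142 and 106 CPM at P7, with a log2 change of 2.20 ± 0.43 (SE, adjusted p = 0.0269). BUB1B was at 26.2, 27.5 and 70.6 CPM at P3 and at 147, 185 and 152 CPM at P7, with an adjusted p of 0.0297. In each of these genes, as in all 85 that rose, the groups did not overlap. P3-6 stood between the other P3 libraries and the P7 libraries.

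The 20 G2/M genes that did not pass the adjusted threshold had log2 changes from 0.53 to 2.04. NDC80, an outer kinetochore protein, had a log2 change of 2.04 ± 0.49 (SE, adjusted p = 0.0526), at 9.64, 9.75 and 33.7 CPM at P3 and 69.0, 84.6 and 67.3 CPM at P7. KIF20A and KIF23, motors of the central spindle, had log2 changes of 1.95 and 1.94 with adjusted p = 0.0591 for both. CDC25C, the phosphatase that activates CDK1, had the smallest log2 change of the list, 0.53 ± 0.22 (SE, adjusted p = 0.213), and was the member whose groups overlapped. It was at 27.7, 23.6 and 41.4 CPM at P3 and at 38.4, 49.4 and 46.1 CPM at P7. The table holds another gene identifier with the same span, chr2:140263301-140324425, and nearly the same counts, so reads of CDC25C are assigned with uncertainty. In the other 28, all 3 P7 libraries were above all 3 P3 libraries, a separation found in 12.2% of all genes tested. P3-6 was the highest P3 library in 29 of the 29, against 1450 of the 5296 genes tested. Without P3-6, 27 of the 29 were called, whereas 2 were called without P3-5, 2 without P7-4, 0 without P7-5, 2 without P7-6 and 1 with the libraries of P3 and P7 alone.

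Of the S phase and DNA replication list, 21 members were in the table and were tested, 5 rose, against 1.6% of all genes tested, and none fell. All 21 had a positive log2 change, with a median of 0.86, and 16 passed the thresholds of the study's methods upward, as did 6.46% of all genes tested. The 5 that rose were TYMS, the thymidylate synthase that supplies a DNA precursor, CCNE1, the cyclin of the G1/S transition, ORC6 of the origin recognition complex, RPA2, which coats single-stranded DNA, and RFC4 of the clamp loader. CCNE1 was at 3.30, 4.09 and 4.76 CPM at P3 and at 9.18, 9.45 and 9.34 CPM at P7, a log2 change of 1.20 ± 0.25 (SE, adjusted p = 0.0318). TYMS was at 17.3, 16.5 and 23.9 CPM at P3 and at 36.1, 63.0 and 37.6 CPM at P7. Both genes separated the ages, as all 85 that rose did, and the highest TYMS level belonged to P7-5. MCM2, a subunit of the replicative helicase, had a log2 change of 1.16 ± 0.31 (SE, adjusted p = 0.0715), and LIG1, the ligase that joins Okazaki fragments, had one of 0.04 ± 0.24 (SE, adjusted p = 0.951). The groups overlapped in 4 of the 21, ORC3, GINS2, POLD1 and LIG1. Leaving out 1 library gave 13 calls in this list without P3-6, 3 without P3-4 and 0 without P3-5, P7-4, P7-5 or P7-6 and with the libraries of P3 and P7 alone.

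**Figure D2:**
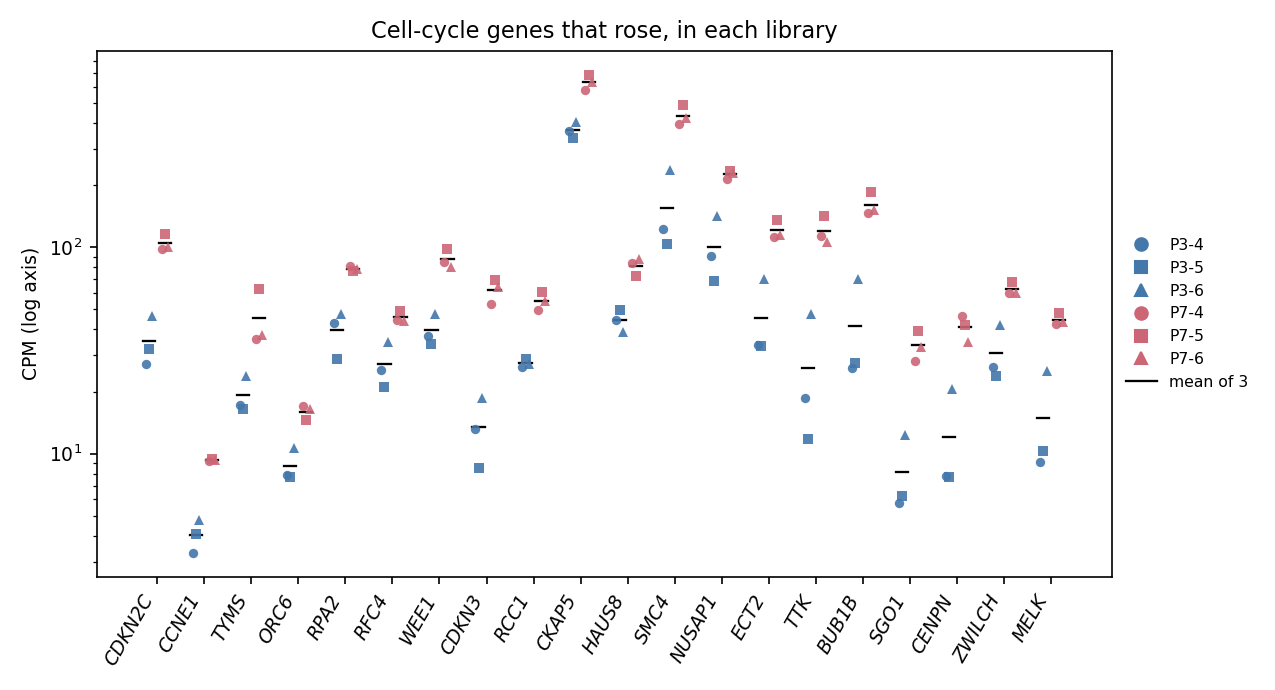
CPM on a log axis of 20 cell-cycle genes that rose, with 1 marker per library (blue for P3, red for P7, the shape giving the library number) and a bar at the mean of 3. In every gene shown, as in all 85 genes that rose, the 3 P7 markers lie above the 3 P3 markers. The blue triangle of P3-6 is the highest P3 marker in most of the genes shown.

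Of the G1 regulators and cell-cycle brakes, 12 were in the table and 11 were tested, and 1 rose, against 1.6% of all genes tested. This was CDKN2C, which encodes p18INK4c, an inhibitor of CDK4 and CDK6. CDKN2C was at 27.3, 32.2 and 46.4 CPM at P3 and at 98.7, 116 and 99.9 CPM at P7. The groups stood apart, as in all 85 genes that rose, and the log2 change of CDKN2C was 1.57 ± 0.29 (SE, adjusted p = 0.022). BTG3, an antiproliferative factor, had a log2 change of 0.95 (adjusted p = 0.0816). RBL2, a pocket protein of quiescent cells, and the DREAM complex subunit LIN37 had log2 changes of 0.22 and -0.34 with adjusted p = 0.265 and 0.173. The median of the list was 0.22, below those of the S phase and G2/M lists.

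Further cell-cycle and DNA repair genes were found among the genes that rose, and these were grouped after their values were seen. No share of all genes tested with such roles was computed, so these genes are described singly. POLQ, the polymerase of microhomology-mediated end joining, was at 12.9, 12.4 and 34.7 CPM at P3 and at 80.5, 98.4 and 80.1 CPM at P7. FANCD2 of the Fanconi anemia pathway and PCLAF, a PCNA-binding protein, rose by log2 changes of 1.75 and 2.10. The centromere factor MIS18A, which helps prepare centromeres for loading of CENP-A, rose by a log2 change of 1.83. The ubiquitin-conjugating enzyme UBE2S and the inhibitor FBXO5, which act on the anaphase-promoting complex in opposite directions, rose by log2 changes of 1.16 and 1.35.

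The summed level of the 29 G2/M genes was 659, 702 and 1591 CPM in P3-4, P3-5 and P3-6 and 2539.6, 3146 and 2602 CPM in P7-4, P7-5 and P7-6. It was 868 to 1125 CPM at P1 and 509 to 866 CPM at P28, so the 3 P7 libraries were the highest of the 12. For single genes, all 3 P7 libraries lay above the other 9 in 28 of the 29 G2/M genes and in 16 of the 21 S phase genes, against 4.34% of all genes tested. The S phase sum was 519 to 590.3 CPM at P1, 521 to 786 CPM at P3, 967 to 1202 CPM at P7 and 344 to 482 CPM at P28. The neighboring intervals share the P3 or the P7 libraries with the comparison described here, so their values are set side by side only. From P1 to P3 the median log2 change was -0.05 in the G2/M list and 0.24 in the S phase list, with no member called in either, where 0.0189% of all genes tested rose and 0.0378% fell. From P7 to P28 it was -2.71 and -1.44, and 29 of 29 and 19 of 21 members fell, where 10.9% of all genes tested fell and 8.31% rose.

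**Figure D3:**
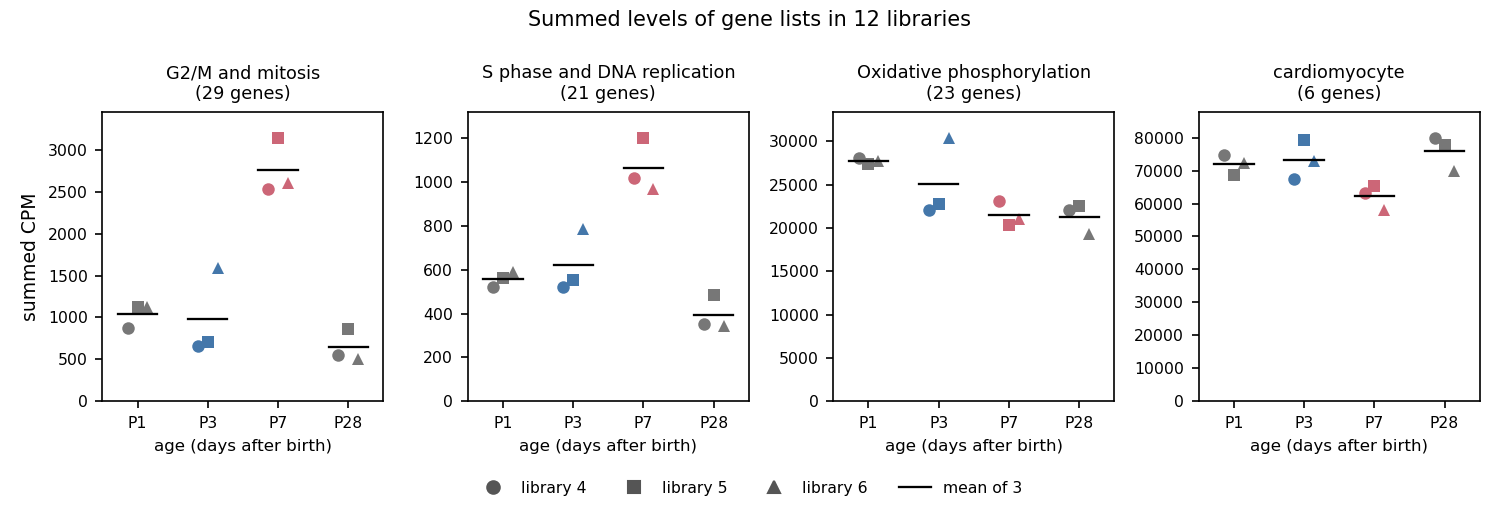
Summed CPM of 4 gene lists in each of the 12 libraries, by age (P3 blue, P7 red, the shape giving the library number, bars at the mean of 3). The G2/M and S phase sums are highest in the 3 P7 libraries, and the cardiomyocyte marker sum lies between 58000.1 and 65316 CPM at P7 against 67327 to 79156 CPM at P3.

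APP, the amyloid precursor protein, a transmembrane protein best known from the brain, had the smallest p of all genes. It was at 1392, 1672 and 1566 CPM at P3 and at 2840.4, 3631 and 3202 CPM at P7, with a log2 change of 1.06 ± 0.13 (SE, adjusted p = 0.00784). Its mean was 1610.2 CPM at P1 and 1812 CPM at P28, so the P7 libraries were the ones that stood apart. APLP1, a related amyloid precursor-like protein, fell by 1.19 on the log2 scale, from 15.9, 23.8 and 19.1 CPM at P3 to 10.9, 7.99 and 6.98 CPM at P7 (adjusted p = 0.0202).

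Some receptors and other cell-surface proteins were among the genes that rose, and they were grouped after their values were seen. LEPR, the leptin receptor, was at 0.918, 0.843 and 0.390 CPM at P3, which rests on 10, 7 and 5 counts, and at 7.20, 9.12 and 11.1 CPM at P7. Its log2 change was 3.69 ± 0.51 (SE, adjusted p = 0.00784), a 12.9-fold difference, and its mean at P1 was 6.79 CPM. P3 was therefore the age with the lowest LEPR level, below P28 at 3.90 CPM. GIPR, the receptor of an incretin hormone, and LPAR3, a receptor of lysophosphatidic acid, rose by log2 changes of 1.51 and 1.99. HTR4, a serotonin receptor, and CD47, the signal that restrains phagocytosis, rose by 0.93 and 0.64. IL5RA, the receptor subunit of interleukin 5, had 0, 0 and 1 counts at P3 and 14, 12 and 12 counts at P7. Against the floor of 3 counts per library this is an at least 3.48-fold higher level (adjusted p = 0.039). IL5RA, too, passed the filter only through the P7 libraries, and it stayed called in 1 of the 6 fits that left out a library. All 117 genes passed the filter, but 109 of them held at least 10 counts in all 6 libraries, and LEPR, MYOZ3 and IL5RA were not among these.

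In the extracellular matrix list, 3 of 43 tested genes rose, against 1.6% of all genes tested, and the list as a whole had a median log2 change of 0.05. They were TIMP4, an inhibitor of matrix metalloproteinases found in the heart, THBS4, a thrombospondin that rises in loaded hearts, and FBN1, the main protein of microfibrils. TIMP4 was at 19.5, 19.1 and 20.6 CPM at P3 and at 48.0, 44.0 and 31.8 CPM at P7, with a log2 change of 1.06 ± 0.16 (SE, adjusted p = 0.00829). FBN1 was at 1873, 2642 and 2774 CPM at P3 and at 4205, 3955 and 3605 CPM at P7, with a log2 change of 0.69 ± 0.15 (SE, adjusted p = 0.0403). Its mean was 3772 CPM at P1 and 1069 CPM at P28, so the P3 libraries lay below the means at P1 and P7 and above that at P28. Outside the list, the secreted matrix proteins CCDC80 and ABI3BP rose by log2 changes of 0.98 and 0.94, although ABI3BP was called in none of the fits that left out a library. CILP, CCN2 and PLOD2 had log2 changes of 1.27, 1.47 and 0.50 with adjusted p = 0.06, 0.176 and 0.0935. The summed level of the list was 34499 CPM in P3-5 against 19487 and 22901 CPM in the other P3 libraries and 23020.5 to 26696 CPM at P7, so the highest library was a P3 library.

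Some genes that moved act in striated muscle, and they were grouped after their values were seen. No share of all genes tested with such roles was computed. MYOZ3, a Z-disc protein of the calcineurin-binding myozenin family, was at 0.367, 0.482 and 0.546 CPM at P3 and at 6.30, 2.60 and 6.41 CPM at P7, a log2 change of 3.41 ± 0.48 (SE, adjusted p = 0.00784). The level is low in all libraries, with 4, 4 and 7 counts at P3 and 70, 39 and 79 counts at P7. The mean of MYOZ3 was 2.65 CPM at P1 and 3.28 CPM at P28, so P3 was the age with its lowest level. CACNA2D2, an auxiliary subunit of voltage-gated calcium channels, fell by 1.70 on the log2 scale, from 5.14, 4.70 and 4.84 CPM to 1.26, 1.66 and 1.54 CPM (adjusted p = 0.0127). RNF207, a ubiquitin ligase linked to repolarization of the heart, was at 1031, 1236 and 769 CPM at P3 and at 516, 570.3 and 562 CPM at P7, and it fell by 0.88 on the log2 scale (adjusted p = 0.0318). RRAD, a small GTPase that restrains L-type calcium channels, fell by 1.00 on the log2 scale, from 677, 1064 and 837 CPM to 382, 379.6 and 523 CPM (adjusted p = 0.0403). In these 3 genes the groups did not overlap, which held for all 32 genes that fell. Of all genes tested, 10.9% had every P7 library below every P3 library. At P1 the means of CACNA2D2, RNF207 and RRAD were 2.10, 584 and 793 CPM. LMCD1, a transcriptional cofactor of cardiac hypertrophy, rose by a log2 change of 0.80 (adjusted p = 0.0336).

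**Figure D4:**
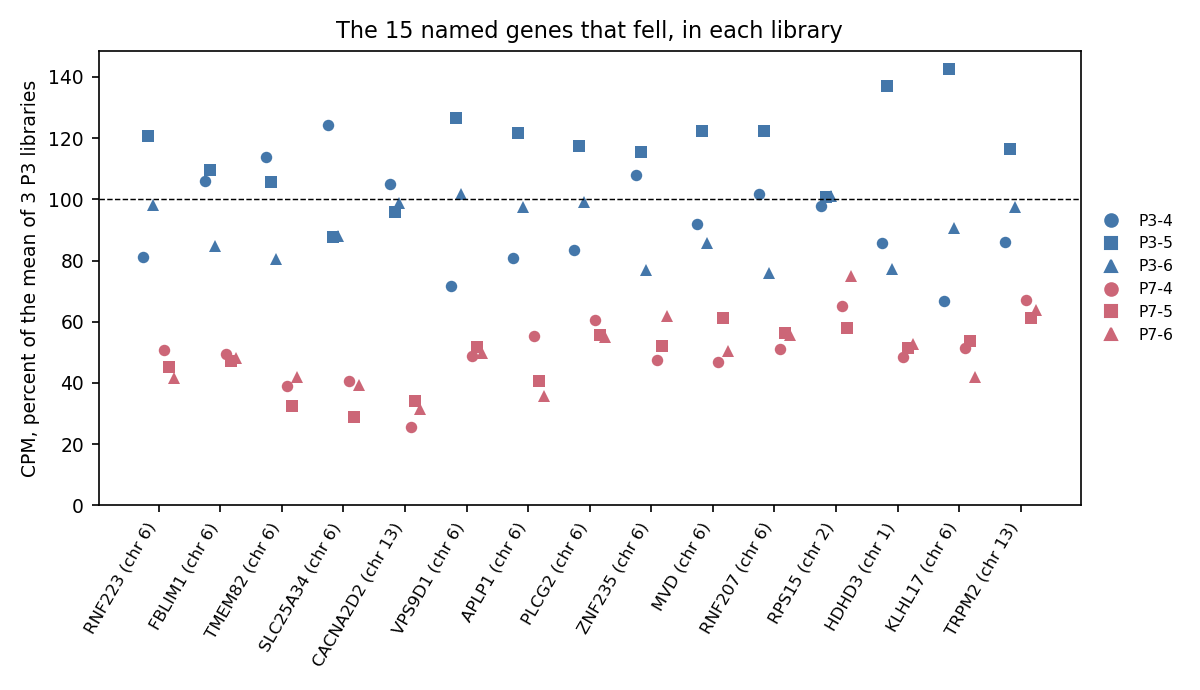
CPM of the 15 named genes with the smallest p among those that fell, as a percentage of the mean of the 3 P3 libraries (dashed line), in each library. All P7 markers (red) lie between 25.8% and 74.8%, and the blue square of P3-5 is the highest marker in most genes.

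The 32 genes that fell included FBLIM1, which links filamin to cell-matrix adhesions, SLC25A34, a mitochondrial carrier, and TMEM82, which lie together on chromosome 6. FBLIM1 was at 495, 512 and 396 CPM at P3 and at 232, 221 and 226 CPM at P7, a fall by 1.05 on the log2 scale (adjusted p = 0.00829). SLC25A34 fell by 1.47 and TMEM82 by 1.40 on this scale. The annotated spans of SLC25A34 (chr6:74909705-74914426) and TMEM82 (chr6:74915707-74920123) both overlap that of FBLIM1 (chr6:74909720-74966965), so the 3 values may share reads. The same holds for KLHL17 and PLEKHN1, whose symbols are exchanged between the count table and the table of gene names and which fell by 1.03 and 1.02 on the log2 scale with count ratios of 1.009 to 1.022 in all 6 libraries, and for HMGN2 and DHDDS, which rose by 0.69 and 0.68 with count ratios of 0.9921 to 0.9969. Among the 117 called genes there were 10 such pairs, which involved 19 genes, so the number of separate loci is smaller than 117.

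Other genes that fell are described singly, since no share of all genes tested with their roles was computed. MVD, an enzyme of cholesterol synthesis in the mevalonate pathway, fell by 0.92 on the log2 scale, from 60.8, 80.9 and 56.7 CPM to 30.9, 40.6 and 33.4 CPM (adjusted p = 0.0318). COQ4, needed for synthesis of coenzyme Q, fell by 0.54 and PLCG2, a phospholipase C of immune cell receptors, by 0.81. CISH, an inhibitor of cytokine signaling through STAT5, fell by 0.76, from 158, 164 and 157 CPM to 74.6, 107 and 101 CPM (adjusted p = 0.0403). RPS15, a protein of the small ribosomal subunit, was at 1004, 1035 and 1038 CPM at P3 and at 667, 595 and 768 CPM at P7. It fell by 0.60 on the log2 scale (adjusted p = 0.0318), and its P3 libraries were nearly level. A called gene without a symbol overlaps RNF223. RNF223, VPS9D1, the zinc finger gene ZNF235, HDHD3 and the cation channel TRPM2 fell by 1.12, 0.99, 0.89, 0.97 and 0.64.

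The genes that fell differed from those that rose in position and in the P3 library that was highest. On chromosome 6 lay 71.9% of the genes that fell, 25.9% of those that rose and 33.2% of all genes tested. These shares count genes with overlapping spans, such as FBLIM1, SLC25A34 and TMEM82, separately, and the difference in position was not tested. The median annotated span of the genes that fell was 11531.5 bases, against 53490 for the genes that rose and 23963 for all genes tested. P3-5 was the highest P3 library in 26 of the 32 genes that fell, 10 of the 85 that rose and 2169 of all 5296. P3-6 was the highest in 61 of the 85 that rose. The part of these 2 libraries in the calls was not tested beyond leaving each of them out, as given above. All 3 P7 libraries were below the other 9 libraries in 17 of the 32 genes that fell, against 2.51% of all genes tested. They were above the other 9 in 68 of the 85 that rose, against 4.34% of all genes tested. All 117 called genes already separated P7 from P3, so these excesses were partly fixed in advance. Of the 578 tested genes with every P7 library below every P3 library, 133 were below the other 9. Of the 644 with every P7 library above every P3 library, 230 were above the other 9.

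No gene of the contractile and calcium lists was called, which for lists of this size is near the 2.21% called of all genes tested. A negative log2 change was found in 2791 of all 5296 genes. The sarcomere list had 12 of 16 members with a negative log2 change (median -0.17), and calcium handling and conduction had 6 of 8 (median -0.25, and -0.15 without P3-5). TNNI3, the adult cardiac isoform of troponin I, was at 10329.9, 13865 and 12993 CPM at P3 and at 9984, 8676 and 8772 CPM at P7, with a log2 change of -0.44 ± 0.14 (SE, adjusted p = 0.122). The groups did not overlap, as in 10.9% of all genes tested in this direction, but the highest P7 library was near the lowest P3 library. MYBPC3, myosin-binding protein C, and the ventricular light chain MYL3 had log2 changes of -0.41 and -0.36 with adjusted p = 0.145 and 0.223, and in both P3-5 was the highest library. TRIM63, a ubiquitin ligase of the sarcomere, and CMYA5 had log2 changes of -0.27 and -0.38 (adjusted p = 0.273 and 0.418). KCNJ11, a subunit of the ATP-sensitive potassium channel, had a log2 change of -0.46 (adjusted p = 0.0978), whereas KCNE1, a subunit of the slow potassium current, had one of 0.57 (adjusted p = 0.13). HRC, GJA1 and HCN2 had log2 changes of -0.36, -0.29 and -0.53 (adjusted p = 0.156, 0.296 and 0.47).

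The respiratory chain was represented by 23 tested genes, of which none was called, near the 2.21% of all genes tested, and 22 had a negative log2 change, as 2791 of all 5296 genes did. The median was -0.19, against -0.03 for all genes, and the exception was NDUFB5 at 0.05. NDUFS8, a subunit of complex I, was at 509.6, 726 and 788 CPM at P3 and at 467, 478 and 416 CPM at P7, a log2 change of -0.57 ± 0.15 (SE, adjusted p = 0.0715). P3-6 was the highest P3 library in 21 of the 23, as it was in 29 of 29 G2/M and 18 of 21 S phase genes, and the summed level was 30393 CPM in P3-6, 22058 and 22738 CPM in the other P3 libraries and 20329.7 to 23144 CPM at P7. The sums of the ages thus overlapped. ATP5F1D, NDUFV1, UQCR11, COX8A and COX4I1 had log2 changes from -0.53 to -0.36 (adjusted p from 0.0999 to 0.226).

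In the fatty acid oxidation and lipid handling list, 0 of 18 genes were called, near the 2.21% of all genes tested, and 5 passed the thresholds of the study's methods downward and 1 upward, against 6.53% and 6.46% of all genes tested. PPARGC1B and ESRRA, which drive transcription of mitochondrial genes, had log2 changes of -1.07 and -0.56 (adjusted p = 0.0859 and 0.0932). PPARGC1B was at 154, 371 and 169.9 CPM at P3 and at 117, 119 and 95.8 CPM at P7, and its P3-5 level stood far above the rest. MLYCD, the decarboxylase that degrades malonyl-CoA, ETFB and CRAT had log2 changes of -0.81, -0.41 and -0.59 (adjusted p = 0.0882, 0.13 and 0.229), and ECHDC1 had one of 0.51 (adjusted p = 0.104). In the glycolysis and hypoxia response list, 0 of 18 were likewise called, and 4 passed the thresholds of the study's methods downward and 0 upward. The median was -0.19, which was -0.05 without P3-4 and -0.06 without P3-6. PFKL, the liver-type phosphofructokinase, PYGM, the muscle glycogen phosphorylase, and HIF3A had log2 changes of -0.94, -0.73 and -1.59 (adjusted p = 0.064, 0.0733 and 0.088). HIF3A was at 81.1, 247 and 44.6 CPM at P3 and at 29.7, 46.1 and 47.1 CPM at P7, where P3-5 was again the highest. PFKFB4, VHL and PYGL had log2 changes of -0.73, 0.42 and 0.24 (adjusted p = 0.13, 0.176 and 0.352).

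**Figure D5:**
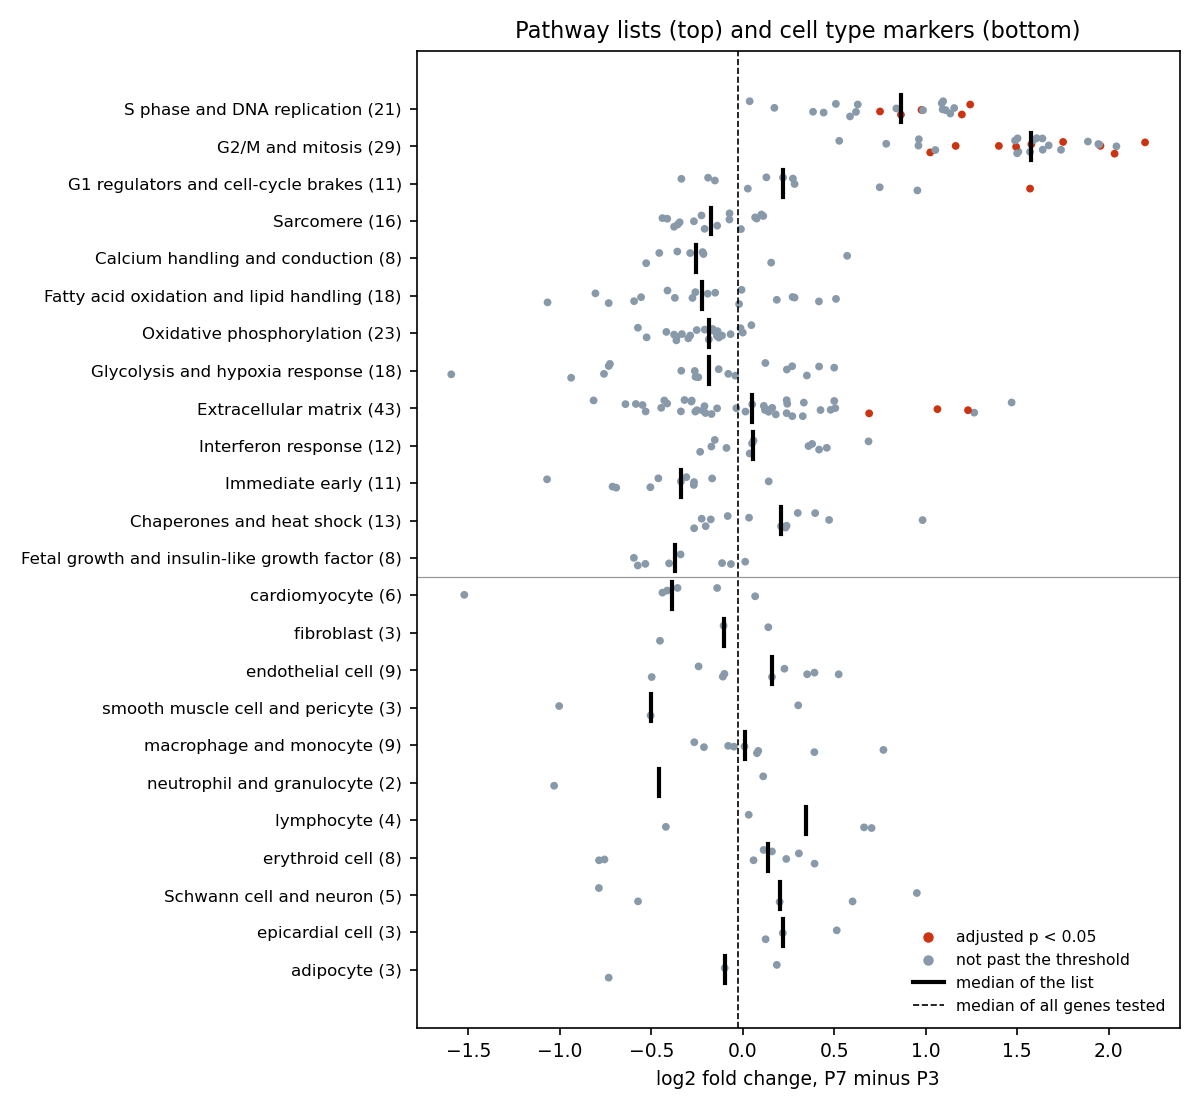
Log2 change from P3 to P7 of every tested member of 13 pathway lists and 11 cell type marker lists (number tested in brackets), with red points for adjusted p under 0.05, a black bar at the median of each list and a dashed line at the median of all genes tested, -0.03. The S phase and G2/M medians, 0.86 and 1.58, lie right of all other pathway medians, and no cell type marker is red.

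No member of the 4 remaining pathway lists was called, which is near the 2.21% of all genes tested. The interferon response, with 12 genes tested, had a median log2 change of 0.05, with IFI44L at 0.69 (adjusted p = 0.167). ISG15, a ubiquitin-like protein induced by interferon, was at 9.27, 27.6 and 29.9 CPM at P3 and at 37.1, 10.4 and 9.66 CPM at P7. Both ages varied widely, and P7-4 was the highest of the P7 libraries. Immediate early genes (11 tested) had a median of -0.34, with EGR1, a serum-induced transcription factor, at -1.07 ± 0.29 (SE, adjusted p = 0.0788). EGR1 was at 18.7, 29.9 and 49.4 CPM at P3 and at 13.9, 14.2 and 18.7 CPM at P7. Chaperones and heat shock genes (13 tested) had a median of 0.21, which was -0.08 without P3-5, with DNAJB5 at 0.98 (adjusted p = 0.182) and HSF2 at 0.47 (adjusted p = 0.19). Fetal growth and insulin-like growth factor genes (8 tested) had a median of -0.37, with PEG3, IGF2BP2 and IGF2R at -0.60, -0.40 and -0.53 (adjusted p = 0.17, 0.177 and 0.271).

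Markers of the cell types that heart tissue can hold gave no call in 55 entries of 11 lists, near the 2.21% called of all genes tested. The 6 cardiomyocyte markers in the table (TNNI3, MYBPC3, MYL3, TNNC1, ACTC1 and NPPB) were present in every library, with ACTC1, the cardiac actin, at 18556 to 23272 CPM. Their summed level was 67327, 79156 and 73002 CPM at P3 and 63289, 65316 and 58000.1 CPM at P7. Every P7 library was thus below every P3 library, by a small margin, while the S phase, G2/M and G1 sums were above. Of the 24 lists, 4 had all P7 sums below all P3 sums and 4 had them above. The part of the lower cardiomyocyte sum in the cell-cycle results was not tested. NPPB, the natriuretic peptide of stretched myocytes, was at 166, 187 and 756 CPM at P3 and 96.1, 156 and 134 CPM at P7 (adjusted p = 0.431), so 1 P3 library held most of the difference.

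For nonmyocytes, the median log2 change was -0.11 for 3 fibroblast markers, 0.16 for 9 endothelial markers, -0.50 for 3 markers of smooth muscle cells and pericytes, 0.01 for 9 markers of macrophages and monocytes, -0.46 for 2 of neutrophils, 0.35 for 4 of lymphocytes, 0.14 for 8 erythroid markers, 0.20 for 5 of Schwann cells and neurons, 0.22 for 3 epicardial markers and -0.10 for 3 of adipocytes. The sign turned for neutrophils without P3-6 (0.28) and for Schwann cells and neurons without P7-4 (-0.11) and with at least 10 counts in all 6 libraries (-0.57), and the neutrophil median was -1.16 without the filter. PDGFRB, the growth factor receptor of pericytes, was at 269, 607 and 318 CPM at P3 and at 185, 249.8 and 159.9 CPM at P7 (adjusted p = 0.106), with P3-5 the highest. ERG, an endothelial transcription factor, had one of 0.52 (adjusted p = 0.0901), and ALDH1A2, the retinoic acid synthase of the epicardium, had one of 0.51 (adjusted p = 0.0988). The sum over smooth muscle and pericyte markers was 1305 CPM in P3-5 against 526 and 700.2 CPM in the other P3 libraries and 503 to 671 CPM at P7, and that of endothelial markers was 1822 CPM in P3-5 against 971 to 1452 CPM in the other 5 libraries. P3-5, the library in which most of the falling genes were highest, held the highest sum of the 6 libraries in 11 of the 24 lists, among them the sarcomere, cardiomyocyte, fibroblast, macrophage, adipocyte, immediate early and fetal growth lists beside these vascular markers and the matrix list. The epicardial sum was 153 to 175 CPM at P3 and 202 to 243 CPM at P7, and the lymphocyte sum was 544 to 639 CPM at P3 and 364 to 523 CPM at P7, so the ages did not overlap in either. CD79A, a B cell receptor subunit, made up most of the lymphocyte sum, and the median log2 change of the list had the opposite sign. MS4A1, PAX5, CD5 and CD6, CALB2 of the epicardium, ADIPOQ and CIDEC of adipocytes, DBH of neurons and ELANE, AZU1 and PADI4 of neutrophils were below the filter, and CALB2 had 0 counts in all 6 libraries.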

How the data were processed

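Read counts per gene, deposited by the authors without normalization, were used for 12 total RNA libraries of 1 sequencing company (3 pigs at each of P1, P3, P7 and P28). The aligner, counter, annotation and strand setting behind the gene counts are not given in the sources used here (the submitters' processing notes name STAR 2.7.9a and MultiQC 1.11 for the series). Those notes name the build Sscrofa10.2, as do the study's methods for the circular RNA alignment, but the build of the gene table is not stated. Of 4338 protein-coding symbols found in RefSeq Sscrofa11.1, 4332 (99.86%) have positions in the table that overlap the RefSeq gene of that symbol. The columns are numbered 4 to 6 within an age, while the labels number samples otherwise, so columns were placed by age only. Names came from the table or, for 232 of the 1398 tested genes it leaves unnamed, from a table of gene names. In 59 genes the names differ. One line without counts was left out. Circular RNA and small RNA tables were not used here.

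Genes that reached 10 counts in 3 or more of the 6 libraries of P3 and P7 were tested in R 4.3.3 with edgeR 4.0.16 (TMM, glmQLFit, glmQLFTest), all 12 libraries in 1 fit, contrast P7 minus P3. The common dispersion was 0.0435. CPM use TMM library sizes. Gene lists are described by counts and medians. Permutation of 3 against 3 libraries cannot give a p below 0.1 and was not used. In counts simulated for these 5296 genes, 58% of 200 genes changed by a log2 value of 1 and 83% of those changed by 1.5 were called. Each gene was drawn independently in this simulation. The named genes are the 15 with the smallest p in each direction, in each list up to 6 with the smallest p and all that were called, and the cardiomyocyte markers. Others, such as POLQ, FANCD2, PCLAF, MIS18A, UBE2S, FBXO5, GIPR, LPAR3, HTR4, CD47, IL5RA, ABI3BP, RRAD, LMCD1, CISH, COQ4, ISG15, NDUFB5, CD79A, PLEKHN1, DHDDS, HMGN2 and the smallest changes of a list, were named after their values were seen. Some genes are not reported here. The genes, lists and tests were chosen with earlier results of these data known. Alternatives were RLE size factors, DESeq2 1.42.0, limma 3.58.1 voom, other filters, only 6 libraries, protein-coding genes, the library number as a block and leaving out each library. P-values test the difference between the ages against a spread between pigs that was estimated from all 12 libraries and in part shared across genes. Plots were drawn with matplotlib 3.10.9.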

Additional observations from a re-analysis of the deposited data

How the results depend on the processing

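All 117 genes called kept their direction under every alternative in which they were tested, which their separation of the ages largely fixed in advance. The median log2 change stayed positive in the G2/M list (1.27 to 2.25) and the S phase list (0.76 to 1.13). Calls were 126 with RLE size factors, 146 without the filter, 114 with at least 10 counts in all 6 libraries and 115 among protein-coding genes, but 364 with DESeq2 (205 higher, 159 lower). The higher share was 72.6% of calls, 56.3% with DESeq2, 34% without P3-4 and 93.3% without P7-5. With only the 6 libraries of P3 and P7, 15 genes were called (12 higher, 3 lower), 1 of the G2/M list and 0 of the S phase list, where 771 genes had an unadjusted p under 0.05. limma voom called 139 genes. G2/M calls were 23 with DESeq2, 22 with limma voom and 18 without the filter, and S phase calls were 12, 9 and 8. Leaving out each library gave 15 to 268 calls (14 to 151 higher, 1 to 177 lower), 0 to 27 in the G2/M list and 0 to 13 in the S phase list, and 169 to 592 lower genes at the thresholds of the study's methods, the extremes being without P3-5 and without P3-4. Deviations of P3 and P7 libraries with the same number correlated with r = -0.05, 0.22 and -0.10. Those with different numbers correlated with r from -0.25 to 0.29, a spread as wide, so these values cannot show whether the numbers pair samples. With the number as a replicate block, 73 genes were called (54 higher, 19 lower), 1 of them in the S phase list. Of the list medians, that of neutrophil markers moved from -0.46 to 0.28 without P3-6 and to -1.16 without the filter, that of calcium handling from -0.25 to -0.15 without P3-5 and -0.33 without P7-6, that of glycolysis from -0.19 to -0.05 without P3-4 and -0.06 without P3-6, that of Schwann cell and neuron markers to -0.57 with at least 10 counts in all 6 libraries and to -0.11 without P7-4, and that of chaperones to -0.08 without P3-5. The cause of these shifts was not tested. At this depth a log2 change of 1 was called in 58% of simulated cases, so genes not called may have changed.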
